A study of Homo sapiens with 6 samples.

Results

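CHLA 05 and CHLA 04 are established cell lines of atypical teratoid rhabdoid tumor (AT/RT), a malignant brain tumor of young children, and both belong to AT/RT group 1. RNA levels of genes were compared between the 1 library of CHLA 05 and the 2 technical replicates of CHLA 04, which are 3 of 6 libraries of 4 cell lines. The cells of each line were grown in DMEM:F12 medium with human EGF and basic FGF, each at 20 ng/mL, and with B-27 at 2%. Total RNA was extracted and sequenced as stranded pairs of 125 bp reads, and the 2 CHLA 04 libraries are technical replicates of 1 sample. Each line was 1 biological sample, so no test of a difference between the lines could be made, and the spread between cultures was not measured. Levels are given in TPM, a unit of relative transcript abundance that accounts for transcript length and library size. Of 36532 genes listed, 15240 had at least 10 reads in a library of either line. A gene was called higher or lower in CHLA 05 when it differed from the CHLA 04 mean by at least 1 on the log2(TPM + 2) scale, and when CHLA 05 lay farther from the nearer CHLA 04 library than the CHLA 04 libraries lay from each other. It also needed at least 10 reads in the line with the higher level. By this rule 2457 of the 15240 genes were called, or 16.1%. A difference below is always CHLA 05 minus CHLA 04 on this log2 scale, and it understates the change of genes with low levels.

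AT/RT arises after loss of SMARCB1, a subunit of the SWI/SNF complexes that move nucleosomes, and it carries few other mutations. Group 1, also called neurogenic or SHH, is known for genes of neural progenitors and for activity of the Notch and hedgehog pathways. Hedgehog ligands relieve the receptor PTCH1 of its hold on SMO, which lets GLI factors drive transcription, while HHIP binds the ligand and limits the signal.

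The libraries held 10265899 and 17360741 reads on transcripts in CHLA 04 and 16389404 in CHLA 05. The CHLA 04 libraries themselves differed by 1 or more on the log2 scale in 634 of the 15240 genes, among them the immediate early gene FOS with 128 and 5.46 TPM. The difference between CHLA 05 and CHLA 04 changed with GC content, from a median of 0.24 over the fifth of genes with the lowest GC to -0.29 over the fifth with the highest. Between the CHLA 04 replicates (replicate 2 minus replicate 1) the same groups of genes had medians of 0.24 and -0.34, which is about the slope between the lines. With the median of each GC bin set to 0, an adjustment chosen after seeing the data, 1503 genes were called higher and 902 lower. The library labelled CHLA 02 stood apart from the other lines in having no genes of its own. None of its genes above 20 TPM was under 1 TPM in both CHLA 04 and CHLA 06, against 39 such genes in CHLA 05. All 115 genes above 50 TPM in CHLA 06 and under 1 TPM in CHLA 04 were present in it at no less than 0.115 of the CHLA 06 level, and all 131 genes with the opposite pattern at no less than 0.0536 of the CHLA 04 level. For this reason CHLA 06 is the line set beside CHLA 05 and CHLA 04 below, and CHLA 02 is given for a few genes as a level or as the presence of reads, with no difference drawn from it. The authors class CHLA 06 as AT/RT group 2, unlike CHLA 05 and CHLA 04.

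The group 1 markers MYCN and GLI2 were present in both lines. MYCN was at 113 and 69.6 against 109 TPM and GLI2, a hedgehog effector, at 167 and 126 against 147 TPM. SOX1, a neural progenitor factor, was at 197 and 229 against 173 TPM and under 0.1 TPM in CHLA 06. SMARCB1 RNA was listed at 26.2 and 22.1 TPM in the CHLA 04 libraries and 16.3 TPM in CHLA 05. The authors describe both lines as lacking SMARCB1 expression, and these RNA levels do not show whether a transcript is intact or makes protein. Of 16 markers of endothelium, blood and immune cells, 2 reached 10 reads in a library, and both were at most 3.7 TPM. None of 9 tested genes of choroid plexus and ependyma was called. No member of the proliferation list of 20 genes and none of 15 housekeeping genes was called either, with medians of 0.09 and 0.01, and the median over all tested genes was 0.0018. By fold alone without CHLA 04 replicate 2, 3 proliferation genes were higher. In RNA of whole cultures, fewer cells of a type and less RNA per cell cannot be told apart.

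In total 1481 genes were called higher in CHLA 05, or 9.72% of those tested, and 976 were called lower, or 6.4%. Differences of at least 2 were found in 533 of the genes called higher and in 310 of those called lower. A further 249 genes differed by at least 1 but were left uncalled by the reads or by the range between the replicates. Near the limit of 1, 147 genes were called higher with a difference under 1.1, and 247 uncalled genes lay between 0.9 and 1. In the other direction these counts were 122 and 227.

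**Figure D1:**
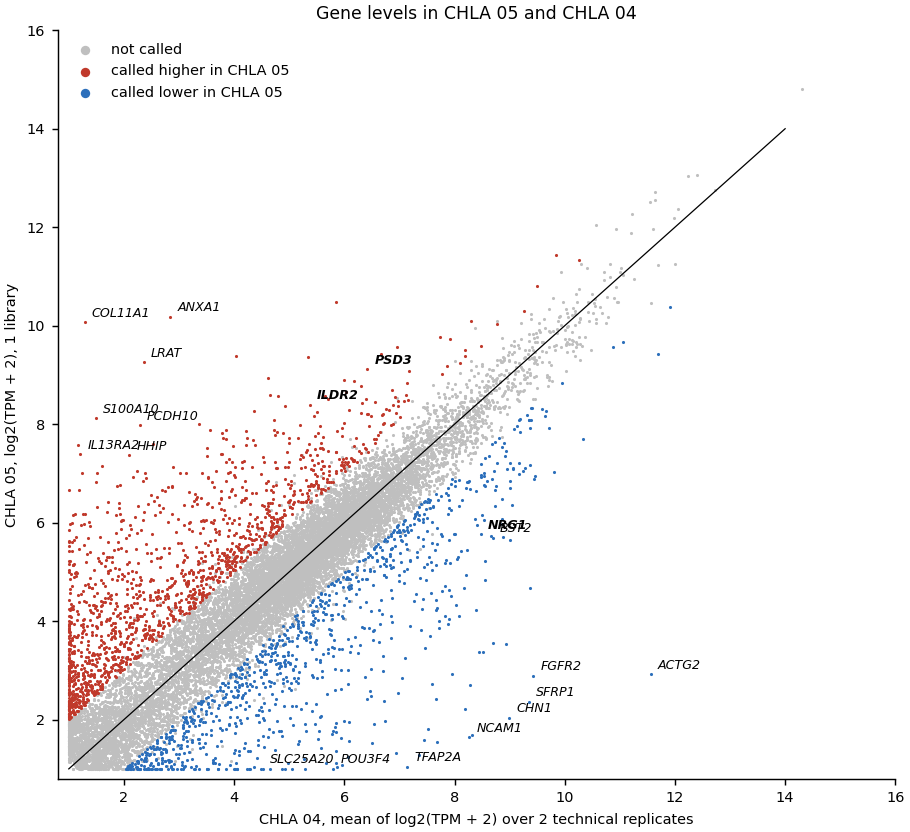
Level of each tested gene in CHLA 05 (vertical axis, 1 library) against the mean of the 2 CHLA 04 technical replicates (horizontal axis), both as log2(TPM + 2), with genes called higher in red, genes called lower in blue and equal levels on the line. PSD3 and ILDR2 lie above the line and NRG1 below it, while COL11A1 and ACTG2 lie farthest from it in either direction.

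PSD3 codes for an exchange factor that loads GTP onto ARF6, a small GTPase of membrane traffic at the cell surface. PSD3 (chr8:18527301-19084730 on GRCh38, minus strand) was at 96.6 and 72.4 TPM in the CHLA 04 libraries and 555 TPM in CHLA 05. The counting interval of the CHLA 05 value, a 95% Wilson interval that covers counting error only, was 547 to 563 TPM. The CHLA 04 mean was 84.5 ± 17.1 TPM (SD, n = 2 technical replicates), and the level in CHLA 05 was 6.57-fold higher, with a difference of 2.70. CHLA 06 had 1.93 and 1.51 TPM. The same transcripts carried the gene in both lines, since ENST00000518315 made up 31.3% and 30.3% of PSD3 TPM in CHLA 04 and 30.4% in CHLA 05. ENST00000523619 made up 17.8% and 17.7% in CHLA 04 and 26.8% in CHLA 05.

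Of 10 tested genes among ARF6 and its exchange factors, 2 were called higher and 2 lower, beside 9.72% and 6.4% over all tested genes. CYTH3, an exchange factor of the cytohesin family, was also higher at 15.9 and 14.6 against 42.1 TPM. PSD, another member of the PSD3 family, went the other way with 46.2 and 35.7 TPM in the CHLA 04 libraries and 8.88 TPM in CHLA 05, and CYTH2 was at 201 and 149 against 84.1 TPM. ARF6 itself was at 50.4 and 82.4 against 68.0 TPM, between the values of the CHLA 04 replicates.

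ILDR2, an angulin of the corners where 3 epithelial cells meet, had a larger difference. ILDR2 (chr1:166895711-166975482, minus strand) was at 49.4 and 31.2 TPM in the CHLA 04 libraries and 334 TPM in CHLA 05, with a counting interval of 329.9 to 338 TPM. The CHLA 04 mean was 40.3 ± 12.8 TPM (SD, n = 2 technical replicates), so CHLA 05 was 8.28-fold higher, with a difference of 3.02. It was under 1 TPM in both CHLA 06 libraries. Transcript ENST00000271417, of 13140 bases and 10 exons, held 66.1% and 80% of the gene's TPM in CHLA 04 and 84.9% in CHLA 05. Among 6 tested genes of the angulins and the tricellular junction, 3 were called higher and 2 lower. These were 50% and 33.3%, beside 9.72% and 6.4% over all tested genes. The angulin LSR was at 0 and 0.156 against 24.2 TPM. MARVELD2, which codes for tricellulin, was lower at 33.0 and 32.4 against 2.85 TPM, as was OCLN, the gene of occludin, at 205 and 265 against 92.3 TPM. The scaffold gene TJP1 was at 126 and 149 against 140.2 TPM and did not leave the range of the replicates.

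NRG1, a ligand of the ErbB receptors, had the highest level of the EGF family ligands in CHLA 04, and it was lower in CHLA 05. NRG1 (chr8:31639386-32767959, plus strand) was at 384 and 325 TPM in the CHLA 04 libraries and 52.4 TPM in CHLA 05, with a counting interval of 49.6 to 55.2 TPM. The CHLA 04 mean was 354 ± 41.9 TPM (SD, n = 2 technical replicates), 6.77-fold the CHLA 05 level, and the difference was -2.71. ENST00000356819 was the main transcript throughout, at 48.7% and 59.7% of NRG1 TPM in CHLA 04 and 54.4% in CHLA 05. Other ligands were higher in CHLA 05. TGFA, a ligand of EGFR, was at 0 and 0.186 TPM in the CHLA 04 libraries and 40.9 TPM in CHLA 05, which is 0 and 3 reads against 1092. EREG, the gene of epiregulin, was at 0 and 0.0627 against 27.1 TPM, with 0 and 2 reads in CHLA 04. NRG2 was at 0.20 and 0.311 against 5.71 TPM.

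The receptors also differed. EGFR was at 10.1 and 13.8 TPM in the CHLA 04 libraries and 209 TPM in CHLA 05, a difference of 3.93, and at 299 and 259.6 TPM in the CHLA 06 libraries. ERBB4, a receptor of the neuregulins, was at 5.28 and 3.8 against 76.9 TPM and under 0.1 TPM in CHLA 06. ERBB2 (26.6 and 20.3 against 35.7 TPM) and ERBB3 (20.5 and 13.1 against 15.0 TPM) were not called. In all, 5 of 12 tested ligands and receptors were called higher and 1 was called lower, with a median difference of 0.63. These were 41.7% and 8.33%, beside 9.72% and 6.4% over all tested genes.

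**Figure D2:**
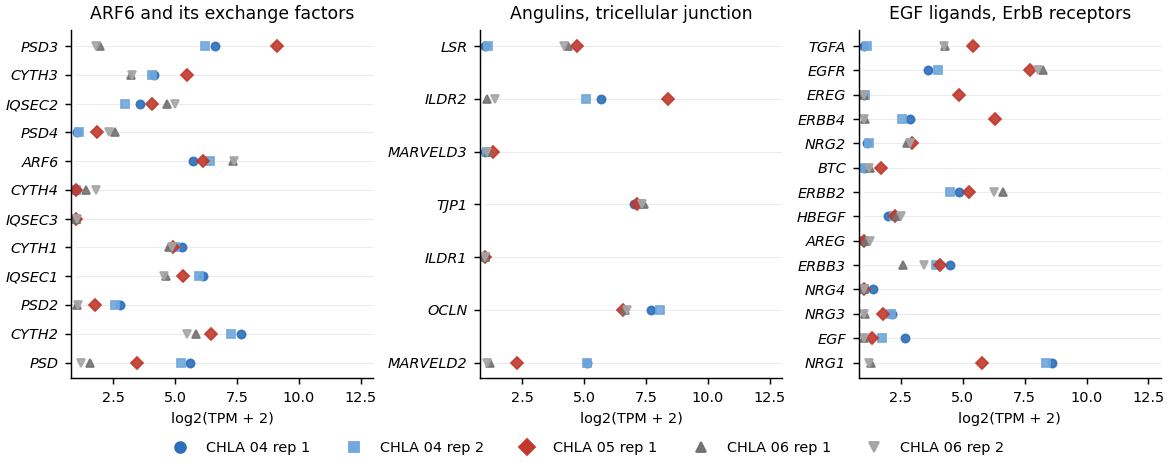
Levels of members of 3 gene lists, as log2(TPM + 2) on the horizontal axis, with 1 row for each gene and 1 symbol for each library of CHLA 04, CHLA 05 and CHLA 06. CHLA 05 lies to the right of CHLA 04 for PSD3, ILDR2, LSR, EGFR, ERBB4, TGFA and EREG, and to its left for NRG1, MARVELD2 and PSD.

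The receptors of fibroblast growth factors, which share the RAS and PI3K pathways with ErbB receptors, differed member by member. FGFR2 was at 828 and 574 TPM in the CHLA 04 libraries and 5.43 TPM in CHLA 05, with 8556 and 9722 reads against 97, and its difference was -6.54. FGFR2 had 459 and 350.3 TPM in CHLA 06, so CHLA 05 was the low line. FGFR3 was higher at 3.91 and 4.85 against 37.4 TPM. FGFR1 remained the most abundant receptor of the family in CHLA 05 and was lower there, at 2054 and 1720.0 against 759 TPM. The intracellular family members FGF12 (7.24 and 7.49 against 0.996 TPM) and FGF13 (6.75 and 5.68 against 0.812 TPM) were lower too. Over the class, 1 of 17 tested genes was called higher and 6 were called lower, or 5.88% and 35.3% beside 9.72% and 6.4% over all tested genes, and the median difference was 0.08.

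The largest difference of any gene was that of COL11A1, which codes for a chain of type XI collagen, a fibril collagen of cartilage. COL11A1 (chr1:102876467-103108496, minus strand) was at 0.781 and 0.146 TPM in the CHLA 04 libraries and 1070.2 TPM in CHLA 05, from 11 and 7 reads in CHLA 04 and 39459 in CHLA 05. Its difference was 8.78, and both CHLA 06 libraries were under 0.1 TPM. ANXA1, the gene of annexin A1, followed with 3.43 and 7.45 TPM in the CHLA 04 libraries and 1162 TPM in CHLA 05, and LRAT, which makes retinyl esters from retinol, with 2.96 and 3.32 TPM in the CHLA 04 libraries and 609.8 TPM in CHLA 05. ANXA1 was also high in CHLA 06, at 6132 and 6309 TPM, whereas LRAT was at 0.819 and 1.6 TPM in the CHLA 06 libraries.

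Several of the 20 genes with the largest positive differences were high in CHLA 05 and near absent from CHLA 04 and CHLA 06. IL13RA2, a decoy receptor of interleukin 13 that is known as a glioma antigen, was at 0.172 and 0.444 TPM in the CHLA 04 libraries and 165 TPM in CHLA 05, and it was under 0.5 TPM in CHLA 06. MT3, a metallothionein of brain, was at 0.528 and 0 against 189 TPM. The adhesion gene PCDH10, a protocadherin, was at 4.11 and 1.88 against 251 TPM, the actin nucleator COBL at 0.513 and 1.68 against 141 TPM, and the secreted glycoprotein gene FSTL5 at 0.719 and 0.978 against 127 TPM. SDK2, a synaptic adhesion molecule, was at 4.64 and 3.0 against 190.5 TPM, and ATP2B2, a calcium pump of the plasma membrane, at 1.02 and 0.624 against 111 TPM. GPR50 (0 and 0.153 against 61.5 TPM), a relative of the melatonin receptors, and GMPR (0.156 and 0.193 against 70.3 TPM), an enzyme of guanine nucleotide salvage, completed this group with FEZF1-AS1 (0.575 and 0.189 against 126 TPM), an antisense RNA. Other genes of the 20 were shared with CHLA 06. FERMT1, which activates integrins, was at 0 and 0.0449 against 60.5 TPM and at 6.68 and 10.6 TPM in the CHLA 06 libraries, and KDELR3, a retrieval receptor of the secretory pathway, was at 0 and 0 against 99.1 TPM and at 41.8 and 52.1 TPM in the CHLA 06 libraries.

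**Figure D3:**
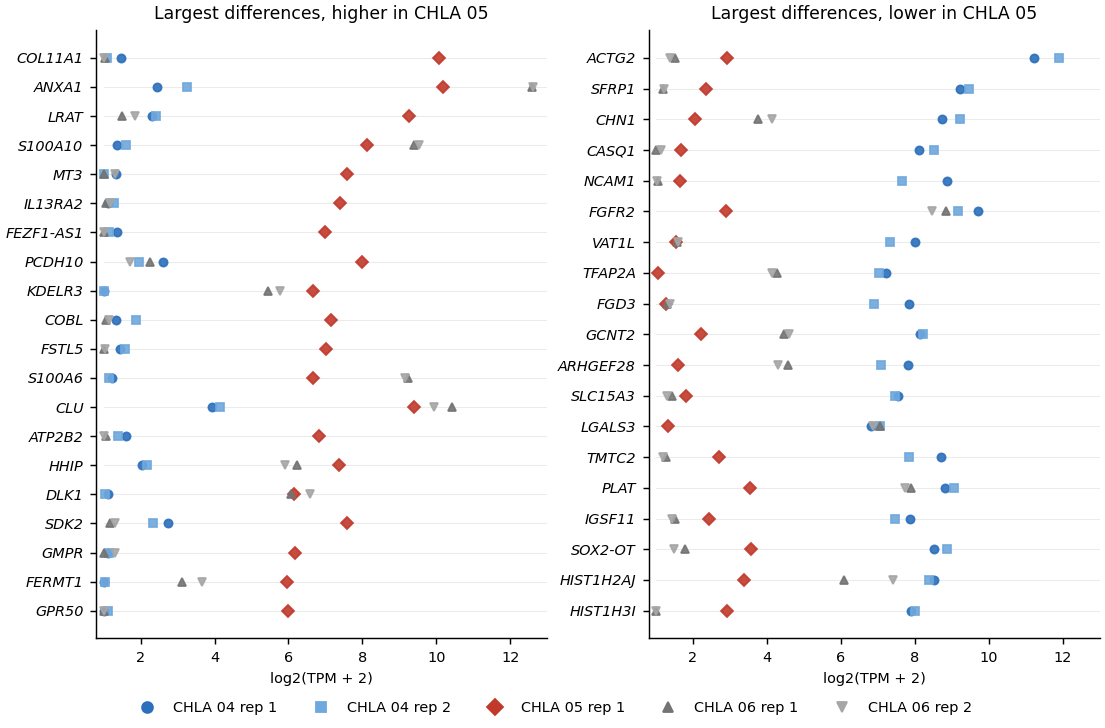
Levels of the 20 genes with the largest positive difference (left) and 19 of the 20 with the largest negative difference (right) that had at least 30 reads in the higher line, as log2(TPM + 2), with 1 symbol for each library of CHLA 04, CHLA 05 and CHLA 06. The CHLA 04 replicates lie closer to each other than to CHLA 05, as the rule for calls requires. CHLA 06 lies near CHLA 05 for ANXA1, CLU and KDELR3 and near CHLA 04 for COL11A1, PCDH10 and SDK2.

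Genes of the extracellular matrix were called higher more often than the share over all tested genes, 9.72%. Of 33 tested collagen genes 14 were higher and 1 was lower, or 42.4% and 3.03%, with a median difference of 0.83. The genes of the type IV chains of basement membrane, which lie head to head on chromosome 13, were both higher, COL4A2 at 7.87 and 5.79 against 127 TPM and COL4A1 at 2.9 and 3.42 against 72.0 TPM. COL9A3, a chain of the type IX collagen of cartilage, was at 0 and 0.292 against 33.7 TPM. The exception was COL26A1 at 187 and 187 against 10.9 TPM. Laminins and integrins had 11 higher and 2 lower of 32 tested, or 34.4% and 6.25%. LAMA2 and LAMA4, laminin chains of basement membrane, were at 0.245 and 0.613 against 61.2 TPM and 0 and 0 against 35.2 TPM. ITGA6 and ITGB4, which pair as a laminin receptor, were at 7.08 and 13.2 against 235 TPM and 0.0426 and 0 against 35.4 TPM.

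The list of mesenchymal and matrix genes had 7 higher and 2 lower of 20 tested, or 35% and 10%. By fold alone without CHLA 04 replicate 1, 11 of the list were higher. Its levels stayed far below those of CHLA 06 for several members. COL1A1 was at 2.76 and 0.679 TPM in the CHLA 04 libraries and 11.5 TPM in CHLA 05 and at 600.3 and 459 TPM in the CHLA 06 libraries, and COL3A1 was at 2.91 and 0.231 against 9.0 TPM and at 1332 and 628 TPM in the CHLA 06 libraries. The 2 ZEB genes, repressors of epithelial genes, differed in opposite directions, with ZEB2 at 1.47 and 0.64 against 18.0 TPM and ZEB1 at 440.2 and 333 against 113 TPM. Among epithelial genes 4 of 6 tested were higher and 1 was lower, or 66.7% and 16.7%, beside 9.72% and 6.4% over all tested genes. CDH1, the gene of E-cadherin, was at 0 and 0.0297 TPM in the CHLA 04 libraries and 12.4 TPM in CHLA 05, and DSP, the gene of desmoplakin, at 0.199 and 0.256 against 3.74 TPM. The keratin genes KRT8 and KRT18 and the surface marker gene EPCAM did not reach 10 reads in either line.

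Ligands and receptors of axon guidance were called higher in 16 and lower in 6 of 63 tested genes, or 25.4% and 9.52%, beside 9.72% and 6.4% over all tested genes. The receptor ROBO1 and its ligand SLIT2 were both higher, whereas SLIT3 was lower at 2.52 and 3.82 against 0 TPM. ROBO1 was at 45.4 and 32.8 TPM in the CHLA 04 libraries and 657 TPM in CHLA 05, and SLIT2 was at 30.6 and 17.6 TPM in the CHLA 04 libraries and 382 TPM in CHLA 05. EPHA5, an ephrin receptor, was at 0.734 and 0.348 against 49.3 TPM, and UNC5C, a receptor of netrin, at 0.0479 and 0.0594 against 28.9 TPM. The ligand netrin 1 itself was lower, with NTN1 at 574 and 379 against 50.4 TPM, and the class 5 semaphorin gene SEMA5B was at 307 and 167 against 36.1 TPM. Cadherins and protocadherins outside the clusters had 9 higher and 2 lower of 25, or 36% and 8%. CDH10 was at 0.788 and 0.388 against 62.5 TPM and CDH4 at 5.48 and 13.6 against 57.2 TPM. The clustered protocadherins had 3 in each direction of 24, with PCDHB11 lower at 99.952 and 60.6 against 12.7 TPM and PCDHGA1 higher at 0.865 and 0.637 against 7.87 TPM.

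In the hedgehog and Notch genes of group 1 the largest difference was that of HHIP. HHIP was at 2.11 and 2.47 TPM in the CHLA 04 libraries and 163 TPM in CHLA 05, a difference of 5.26, and at 72.5 and 57.7 TPM in the CHLA 06 libraries. Its antisense RNA HHIP-AS1 was at 2.51 and 1.81 against 33.6 TPM. Whether reads were counted by strand is not given in the sources used here, so reads of a gene and its antisense partner cannot be told apart. BOC, a co-receptor of the ligand, was lower at 663 and 396 against 102 TPM. The core of the pathway was close in both lines, with PTCH1 at 244 and 241 against 208 TPM, SMO at 55.5 and 43.6 against 57.6 TPM, SUFU at 20.3 and 16.7 against 14.5 TPM and GLI1 at 59.6 and 49.1 against 34.0 TPM, none of them called. GLI3, which acts mostly as a repressor, was lower at 229 and 178 against 45.3 TPM. Of the Notch genes, HES6 was higher at 350.3 and 164 against 842 TPM, DTX1 was lower at 20.2 and 11.5 against 6.03 TPM, and the ligand DLL1 at 257 and 155 against 114 TPM was not called. In total 3 of 15 markers were called higher and 2 were called lower, or 20% and 13.3%, with a median of 0.01. Over all tested genes the shares were 9.72% and 6.4%.

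Factors that pattern the brain differed in both directions. Of 46 tested homeobox genes of the LIM, paired, DLX and POU kinds 13 were higher and 7 were lower. These were 28.3% and 15.2%, beside 9.72% and 6.4% over all tested genes. DLX5 and DLX6, neighbours that act in interneurons of the forebrain, were at 6.21 and 3.02 against 100.002 TPM and 5.03 and 3.69 against 72.7 TPM, and the antisense RNA DLX6-AS1 was at 2.78 and 1.52 against 41.2 TPM. EMX2, a factor of the dorsal forebrain, was at 1.51 and 1.1 against 37.6 TPM. The POU factors POU3F4 and POU4F1 were lower, at 60.3 and 47.5 against 0 TPM and 76.7 and 57.3 against 8.39 TPM, whereas POU4F2 was higher at 0.0752 and 0 against 2.97 TPM and POU2F2 at 0.929 and 0.126 against 3.69 TPM. SOX2, SOX5, SOX9 and SOX13 were called higher. SOX5, SOX9 and SOX13 were at 14.2 and 7.09 against 112 TPM, 24.3 and 26.7 against 228 TPM and 12.1 and 6.22 against 64.4 TPM. SOX2 was at 0.47 and 0.173 against 4.03 TPM, a difference of 1.38, while SOX2-OT, the long noncoding RNA in which SOX2 lies, was lower in CHLA 05 at 367 and 468 against 9.82 TPM.

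Of 9 tested astrocyte genes 5 were called higher in CHLA 05 and none was called lower, beside 9.72% and 6.4% over all tested genes, with a median difference of 1.65. CLU, the gene of clusterin, was at 13.4 and 15.7 TPM in the CHLA 04 libraries and 671 TPM in CHLA 05, and GJA1, which codes for the gap junction protein connexin 43, was at 2.8 and 2.15 TPM in the CHLA 04 libraries and 119 TPM in CHLA 05. GFAP, the intermediate filament of astrocytes, was at 45.3 and 47.9 against 151 TPM. S100B had no read in either CHLA 04 library and 87 in CHLA 05, or 15.2 TPM. AQP4, the water channel of astrocytes, was at 51.9 and 39.6 against 43.2 TPM and did not leave the replicate range. Of 6 tested genes of the oligodendrocyte lineage 3 were higher and none was lower, although 2 lay below both CHLA 04 libraries. Those called were the factors OLIG1 (2.28 and 0.968 against 31.9 TPM) and OLIG2 (1.13 and 1.54 against 14.2 TPM) and the proteoglycan gene CSPG4 (1.94 and 1.78 against 42.6 TPM). SOX10, MBP and MOG did not reach the reads needed for a comparison.

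Of 24 tested neuronal genes, 5 were higher and 2 were lower, or 20.8% and 8.33%, beside 9.72% and 6.4% over all tested genes. By fold alone without CHLA 04 replicate 2, 4 were lower. The neurofilament genes NEFM and NEFL were at 0.916 and 0.353 against 27.4 TPM and 3.84 and 3.34 against 26.3 TPM, and the filament gene INA was at 15.1 and 40.1 against 216 TPM. NCAM1, the neural cell adhesion molecule, was among the genes with the largest negative differences, at 469 and 201 TPM in the CHLA 04 libraries and 1.14 TPM in CHLA 05, with 22 reads in CHLA 05. ELAVL3, an RNA-binding protein of neurons, was lower at 27.6 and 29.1 against 6.49 TPM. MAP2 and TUBB3 were at 745 and 624 against 915 TPM and 308 and 221 against 205 TPM, neither called. Of the genes of transmitter identity, GAD1, which makes GABA, was higher at 8.43 and 10.2 against 64.2 TPM, and EOMES, a factor of intermediate progenitors, at 0.474 and 1.6 against 34.4 TPM. The list had 4 higher and 1 lower of 15 tested, or 26.7% and 6.67%.

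Receptors of glutamate, GABA and glycine were called lower in 11 and higher in 5 of 38 tested genes, or 28.9% and 13.2%. Over all tested genes these shares were 6.4% and 9.72%, and the list's median was -0.30. GRM3, a metabotropic receptor, was at 97.0 and 84.6 TPM in the CHLA 04 libraries and 1.75 TPM in CHLA 05. The kainate receptor gene GRIK2 was at 300.1 and 196 against 20.7 TPM and the AMPA receptor gene GRIA2 at 204 and 140.2 against 17.0 TPM. Against this direction, GABBR2, a subunit of the GABA type B receptor, was at 0.698 and 1.84 against 72.0 TPM. Potassium channels had 10 in each direction of 56, or 17.9% each. KCNQ5, a subunit of the M current, was higher at 0.194 and 0.022 against 33.3 TPM.

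ACTG2, the smooth muscle gamma actin, had the largest negative difference. ACTG2 (chr2:73892314-73919865, plus strand) was at 2373 and 3847 TPM in the CHLA 04 libraries and 5.58 TPM in CHLA 05, with 14846 and 38655 reads against 51, and both CHLA 06 libraries were under 1 TPM. ACTA2, the smooth muscle alpha actin and a close relative in sequence, was at 676 and 1036 against 495 TPM and was not called. SFRP1, a secreted antagonist of WNT ligands, was at 593 and 711 TPM in the CHLA 04 libraries and 3.14 TPM in CHLA 05. CHN1, a regulator of RAC in axon guidance, was at 427 and 599 TPM in the CHLA 04 libraries and 2.11 TPM in CHLA 05. TFAP2A, a factor of neural crest and ectoderm, was at 148 and 129.7 TPM in the CHLA 04 libraries and 0.056 TPM in CHLA 05, with 1 read in CHLA 05, and at 17.3 and 15.6 TPM in the CHLA 06 libraries. CASQ1, the calcium store protein of fast muscle, was at 273 and 366 against 1.21 TPM.

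Some genes called lower were high in CHLA 06 as well, so that CHLA 05 was the low line. LGALS3, the gene of galectin 3, was at 111 and 132 against 0.508 TPM and at 130.1 and 115 TPM in the CHLA 06 libraries. PLAT, the tissue plasminogen activator, was at 448 and 533 against 9.6 TPM and at 235 and 211 TPM in the CHLA 06 libraries. IGF2BP3, an RNA-binding protein of fetal tissue and tumors, was at 52.9 and 58.9 TPM in the CHLA 04 libraries and 0.571 TPM in CHLA 05, and at 106 and 92.3 TPM in the CHLA 06 libraries. Other genes had CHLA 06 means under 1 TPM. They include VAT1L (257 and 159 against 0.922 TPM), FGD3 (225 and 117 against 0.429 TPM), TMTC2 (419 and 228 against 4.51 TPM), IGSF11 (231 and 176 against 3.38 TPM) and the peptide transporter SLC15A3 (186 and 175 against 1.53 TPM).

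Of the 25 lists, the interferon response had the largest share of members called in 1 direction. Type I interferons act through a complex with IRF9, which binds the interferon-stimulated response element in promoters of genes against viruses. Of 19 tested genes 14 were called lower in CHLA 05 and none was called higher, or 73.7% beside 6.4% over all tested genes, and the median difference was -1.67. With the fold limit raised to 4 the count was 7. BST2, which tethers budding virions, was at 474 and 358 TPM in the CHLA 04 libraries and 49.9 TPM in CHLA 05. IFI6 was at 693 and 470.0 TPM in the CHLA 04 libraries and 126 TPM in CHLA 05, ISG15, a ubiquitin-like protein, at 248 and 237 TPM in the CHLA 04 libraries and 74.8 TPM in CHLA 05, and IFIT1, which binds viral RNA, at 128 and 194 TPM in the CHLA 04 libraries and 37.5 TPM in CHLA 05. IFI27 was at 32.4 and 28.6 against 2.1 TPM and IFI44 at 32.9 and 28.6 against 4.06 TPM. Each of these 6 genes was called lower, which by the rule places CHLA 05 below both CHLA 04 libraries.

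The 14 genes called lower include the sensor DDX58 and the factors IRF7 and IRF9, which drive the response. IRF7, which amplifies it, had 95 and 176 reads in CHLA 04 and none in CHLA 05, or at least 52.2-fold less against the 3 reads that a count of 0 allows. IRF9 was at 56.2 and 52.8 against 8.94 TPM. The sensor DDX58, or RIG-I, was lower at 34.1 and 38.7 against 10.6 TPM, whereas IFIH1, the sensor MDA5, was at 3.2 and 3.59 against 6.82 TPM, above both CHLA 04 libraries but not called. In CHLA 06 the list was mixed, since IFIT1 was at 164 and 130.2 TPM and BST2 was under 1 TPM in both libraries.

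Promoters of the list, 250 bases before to 50 after the RefSeq start of a gene on GRCh38.p14, were searched for the core of the response element, GAAANNGAAA or its reverse complement TTTCNNTTTC, with overlapping matches allowed. Promoter sequences were at hand for 14 of the 20 genes, and 11 of these held the motif, against 1255 of all 35116 promoters, or 3.57%. Among 12 genes called lower with a promoter sequence, 9 held it, and both remaining genes, IFIH1 and MX1, held it as well. Among tested genes with a promoter sequence, the motif was in 5.26% of 627 called lower, in 2.5% of 1039 called higher and in 2.72% of 9014 not called. The 33 genes behind the 5.26% include the 9 of the interferon list, so that share is not separate from the list. Windows of 50 bases around the match nearest to the start are shown for 4 genes called lower and for IFIH1, which was not, on the strand of the gene with the motif in capitals.
ISG15: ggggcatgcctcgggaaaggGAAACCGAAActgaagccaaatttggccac
BST2: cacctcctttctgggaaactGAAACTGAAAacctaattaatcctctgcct
IFIT1: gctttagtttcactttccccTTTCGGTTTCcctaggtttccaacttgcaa
IFI44: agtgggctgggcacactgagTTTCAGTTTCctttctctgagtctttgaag
IFIH1: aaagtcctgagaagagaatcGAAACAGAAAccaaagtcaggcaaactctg
In that order they lie at chr1:1013370-1013419 (plus strand), chr19:17405725-17405774 (minus strand), chr10:89392500-89392549 (plus strand), chr1:78649751-78649800 (plus strand) and chr2:162318676-162318725 (minus strand). The first base of the motif lay 107, 124, 103, 18 and 21 bases before the start. A match is a description of the letters in this window, and binding was not measured.

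**Figure D4:**
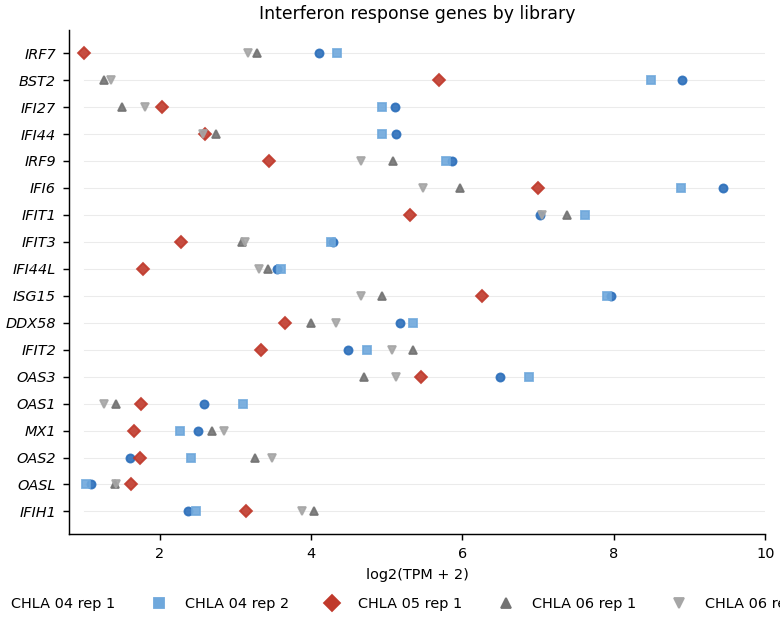
Levels of 18 of the 19 tested interferon response genes, as log2(TPM + 2), with 1 symbol for each library of CHLA 04, CHLA 05 and CHLA 06, in order of the difference. CHLA 05 lies below both CHLA 04 libraries in 15 of these and above both in 2.

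Antigen presentation did not follow the interferon genes. Of 13 tested genes of MHC class I and II, 2 were higher, none was lower, and 11 lay above both CHLA 04 libraries. The share called higher was 15.4%, beside 9.72% over all tested genes. By fold alone without CHLA 04 replicate 1, 4 were higher. PSMB9, a subunit of the immunoproteasome, was higher at 5.37 and 3.19 against 13.9 TPM. B2M, the light chain of class I, was at 161 and 179 against 326 TPM and was not called. The class I and II genes resemble each other closely in sequence, so the reads counted on single members are uncertain.

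Of 71 tested histone genes 13 were lower and 4 higher, or 18.3% and 5.63%, beside 6.4% and 9.72% over all tested genes. HIST1H2AJ was at 363 and 332 TPM in the CHLA 04 libraries and 8.32 TPM in CHLA 05 and HIST1H3I at 238 and 255 TPM in the CHLA 04 libraries and 5.59 TPM in CHLA 05. HIST1H2BI went the other way at 0 and 0.38 against 29.8 TPM. The class median was -0.03, and members of these families are nearly identical in sequence, so reads can be split between them. The same holds for HSPA1A and HSPA1B, which code for almost the same heat shock protein. HSPA1A was called higher at 1.96 and 3.28 against 67.2 TPM, while HSPA1B was at 250.1 and 203 against 192 TPM.

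Genes were counted as found in CHLA 05 alone of the 2 lines when CHLA 05 had at least 10 reads and both CHLA 04 libraries had none. They were 174 of 14456 genes with 10 reads in CHLA 05, or 1.2%, with a median of 28 reads and 36 genes at 100 reads or more. Of the 174 genes, 127 had reads in CHLA 06 and 39 had none in either CHLA 06 or CHLA 02. By reads the first was ST8SIA4, a polysialyltransferase that modifies NCAM1, with 1140 reads or 31.0 TPM. NCAM1 itself was called lower in CHLA 05, as given above. Against the 3 reads over both CHLA 04 libraries that a count of 0 allows, ST8SIA4 was at least 648-fold higher. KDELR3 was at least 626-fold higher, and LRFN5, a synaptic adhesion molecule, at least 474-fold, with 834 reads. FEZF1, a factor of forebrain and olfactory development, had 738 reads or 55.4 TPM and was listed at 0 in every other library. FEZF1-AS1 lies on the opposite strand beside it. The matrix genes LAMA4 and COL15A1 had 599 and 390 reads, MMP28, a matrix metalloproteinase, 520, and SCIN, which severs actin filaments, 490. SCNN1A, a subunit of the epithelial sodium channel, had 468 reads and the meiotic gene MEIOB 379.

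In the other direction 68 of 13572 genes with 10 reads in each CHLA 04 library had none in CHLA 05, or 0.501%. POU3F4, a factor of the developing brain and inner ear, had 989 and 1272 reads in CHLA 04 and was at least 455-fold lower in CHLA 05, against the 3 reads that a count of 0 allows there. The adaptor gene EFS had 521 and 483 reads, the mitochondrial folate enzyme gene ALDH1L2 347 and 432, and OTOF, the gene of otoferlin, 413 and 300. LRMP, ZNF536 and FAM181A were of the same kind, with at least 80.6-fold, 94.5-fold and 80.5-fold lower levels in CHLA 05.

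SLC25A20 was different from the others in its level elsewhere. It codes for the carrier that brings acylcarnitines into mitochondria for fatty acid oxidation, and most tissues use it. SLC25A20 (chr3:48856931-48898993, minus strand) was at 21.4 and 20.7 TPM in CHLA 04, at 18.5 and 17.1 TPM in the CHLA 06 libraries and at 14.9 TPM in CHLA 02, with no read on any transcript in CHLA 05. Its level in CHLA 05 was at least 81.3-fold lower than in CHLA 04. The neighbours on either side were present, PRKAR2A at 50.7 and 45.4 TPM in the CHLA 04 libraries and 55.0 TPM in CHLA 05 and ARIH2 at 92.1 and 86.2 TPM in the CHLA 04 libraries and 77.3 TPM in CHLA 05, neither of them called.

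Genes called higher lay beside each other in several places. In runs of 10 neighbouring tested genes, 7 places had at least 7 called higher, beside 9.72% of all tested genes, and none had as many called lower. On chromosome 1 at 151982915 to 153634340, 8 of 10 were S100 genes called higher, a family of small calcium-binding proteins. S100A10, the partner of annexin A2, was at 0.581 and 1.07 TPM in the CHLA 04 libraries and 277 TPM in CHLA 05, S100A6 at 0.351 and 0.215 TPM in the CHLA 04 libraries and 99.3 TPM in CHLA 05, and S100A4 at 82.2 and 37.0 TPM in the CHLA 04 libraries and 1428 TPM in CHLA 05. S100A1 had no read in CHLA 04 and was at 46.5 TPM in CHLA 05. All 4 were higher than CHLA 04 in CHLA 06 as well, with S100A10 at 667 and 733 TPM. On the same chromosome at 222712553 to 224010116, 8 of 10 neighbours were called, among them DISP1, which releases hedgehog ligands, at 26.9 and 19.1 against 69.6 TPM, SUSD4 at 1.11 and 1.04 against 25.5 TPM and CAPN2 at 138 and 148 against 543 TPM. On chromosome 14 at 100291111 to 100967040, the imprinted genes DLK1, RTL1 and MEG8 were called higher. DLK1, a noncanonical Notch ligand, was at 0.179 and 0.0307 TPM in the CHLA 04 libraries and 69.6 TPM in CHLA 05 and at 64.7 and 94.7 TPM in the CHLA 06 libraries. MEG3, a long noncoding RNA of the same domain, was at 217 and 101 against 351 TPM and was not called, since the CHLA 04 libraries differed by 1.09. On chromosome 3, ZIC1 and ZIC4, a pair of factors of the dorsal neural tube and cerebellum, were at 1.44 and 1.81 against 53.0 TPM and 0.458 and 0.191 against 10.0047 TPM.

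Neither the hypoxia and glycolysis list (17 tested) nor the AT/RT-TYR markers (4 tested) had a called gene, and the cholesterol synthesis list had 1 of 17, MVD at 209 and 165 against 76.6 TPM. Of 21 tested SWI/SNF subunits, DPF1, a subunit of neuronal complexes, was lower at 69.8 and 65.4 against 9.32 TPM and DPF3 was higher at 0.126 and 0.15 against 2.46 TPM. Zinc finger genes were called in 9 and 27 of 556 tested, or 1.62% higher and 4.86% lower, both below the shares over all tested genes. Cytosolic ribosomal protein genes had 2 in each direction of 80, and RPS27 was higher at 717 and 728 against 1787 TPM. Solute carriers had 36 higher and 14 lower of 244, or 14.8% and 5.74%, beside 9.72% and 6.4% over all tested genes. SLC2A12, a glucose transporter, was at 2.01 and 1.62 against 69.9 TPM, and SLC38A1, a glutamine transporter, at 2.07 and 2.74 against 56.2 TPM. Mitochondrially encoded genes had a median difference of 1.03 over 13 genes with 1 called, and they made up 1.83% and 3.27% of TPM in CHLA 04 and 4.78% in CHLA 05.

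Morphogen ligands were split between the lines. TGFB2 was higher at 0.862 and 0.616 against 18.0 TPM and TGFB1 was lower at 34.2 and 22.9 against 2.82 TPM. BMP7 was lower at 337 and 223 against 40.7 TPM. Of the WNT pathway, the ligand WNT7B was higher at 10.1 and 9.08 against 120.1 TPM, the receptor FZD3 was higher at 4.8 and 3.44 against 89.3 TPM, and the receptor FZD1 was lower at 99.4 and 67.4 against 18.8 TPM. These classes had 5 higher and 3 lower of 21 tested and 4 higher and 1 lower of 15 tested. The shares were 23.8% and 14.3% for the first and 26.7% and 6.67% for the second, beside 9.72% and 6.4% over all tested genes. The class of TGF-beta and BMP ligands was set by symbol and also counts BMP2K, a kinase.

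**Figure D5:**
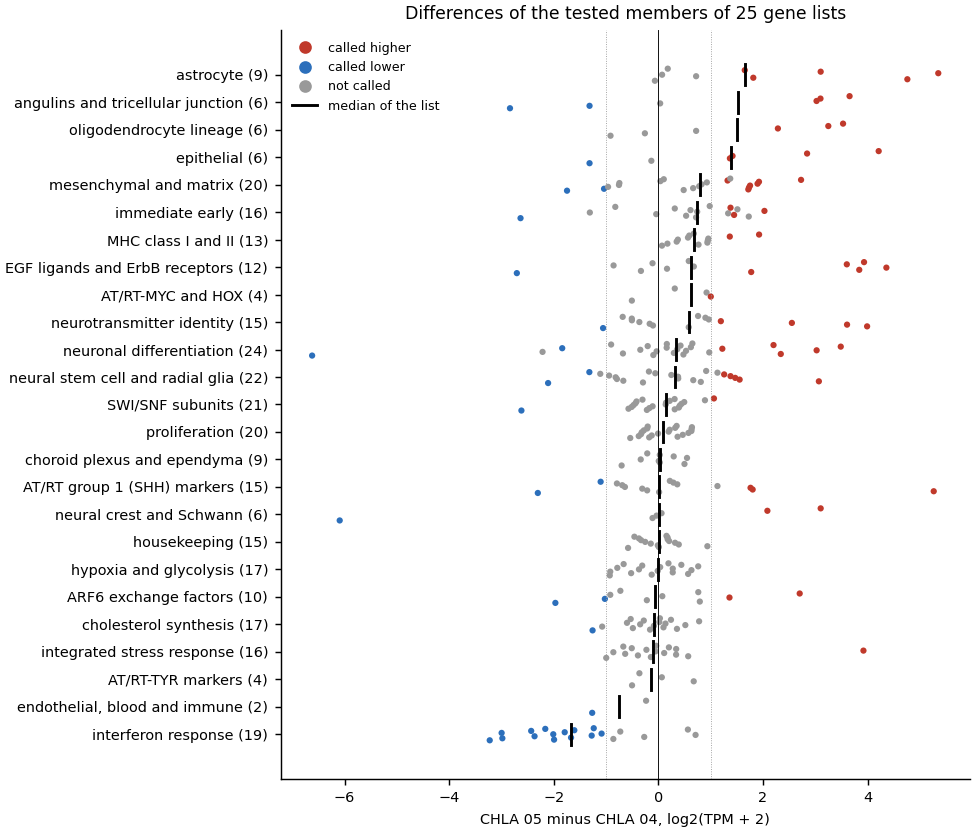
Difference of each tested member of 25 gene lists, CHLA 05 minus CHLA 04 on the log2(TPM + 2) scale, with 1 point a gene, called genes in color, the median of each list as a bar and the number of tested members in parentheses. The interferon response lies lowest with a median of -1.67 and the astrocyte list highest with 1.65, and the dotted lines mark a difference of 1 in either direction.

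CHLA 06, a line of AT/RT group 2, was used to see which of the 2 group 1 lines was apart. A gene apart from CHLA 06 may follow the group or the line, and these cannot be told apart here. Of 1481 genes called higher, CHLA 05 was at least 1 above both CHLA 06 libraries as well in 801, or 54.1%, and CHLA 04 was at least 1 below both CHLA 06 libraries in 454, or 30.7%. Of 976 genes called lower, CHLA 05 was at least 1 below both CHLA 06 libraries in 163, or 16.7%, and CHLA 04 was at least 1 above them in 614, or 62.9%. The 2 conditions of a direction can both hold, as for HHIP and for TFAP2A, so the sets overlap and the shares are not parts of a whole. Genes such as COL11A1, LRAT and PCDH10 belong to the first set and ANXA1, S100A10 and EGFR to the second. FGFR2, LGALS3 and SLC25A20 belong to the third, and ACTG2, SFRP1 and NCAM1 to the fourth. These counts share the CHLA 04 and CHLA 05 values with the calls themselves, and they describe 1 sample a line.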

How the data were processed

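Total RNA of AT/RT cell lines was sequenced, and the CHLA 05 library and the 2 CHLA 04 technical replicates were compared. Per the labels the authors used CASAVA 1.8.2, FastQC and Trimmomatic with GRCh38, and by their methods they mapped with the CLCbio Genomics Workbench. The authors deposited TPM for 173113 Ensembl transcripts in each library, and replicates were not pooled. The LTR files were not used here.

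Transcript TPM was added up by Ensembl gene identifier. TPM multiplied by transcript length fell on whole multiples of 1 read, within 0.05 reads, for at least 99.6% of values, and reads were recovered from these steps. At this depth 1 read on 1000 bases was worth 0.145 to 0.236 TPM in the 3 libraries. Levels were compared as log2(TPM + 2). Wilson intervals cover counting error only. No test of a difference was made. Only the recovery of reads and the rule for calls were tried on simulated data. GC content came from GENCODE transcripts and matched 99.7% of the tested genes. Promoters came from RefSeq (GRCh38.p14). Python 3.11.15, pandas 2.3.3 and NumPy 2.4.6 were used.

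The 25 gene lists and 30 symbol classes, like the comparison itself, were chosen with earlier results of these data known. Genes named were PSD3, ILDR2 and NRG1, the 20 called genes with the largest difference in each direction with at least 30 reads, the 10 genes with the most reads found in either line alone, and at most 4 called members of a list. XIST, TSIX and chromosome Y were left out. Some genes that this rule or a list names are not reported here. Uncalled members of lists, neighbours of named genes and further called members, such as COL4A1, FGFR1, IFIT1 and S100A4, were named after their values were seen. Alternatives were other pseudocounts, read minimums, scalings, fold limits, collapsing of replicates or transcripts, and leaving out each CHLA 04 replicate.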

Additional observations from a re-analysis of the deposited data

How the results depend on the processing

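The counts of 1481 genes called higher and 976 called lower stayed within 1.5 times of these values under both other pseudocounts, both other read minimums, quantile normalization, both other scalings, the maximum of the technical replicates, the most abundant transcript, the fold limit without the replicate range, and the GC adjustment, which was chosen after seeing the data. Of these, a pseudocount of 0.1 gave the most, 2046 higher and 1464 lower, the latter at the edge of that range. A fold limit of 4 gave 533 higher and 310 lower. Leaving out either CHLA 04 replicate gave 1592 to 1834 higher and 961 to 1614 lower, where 1614 is the count without replicate 2, which leaves the shallower library. Under quantile normalization 1354 genes were higher and 1111 lower, and 89.9% and 98.5% of the original calls were shared. With the maximum of the replicates, which moves the median of all genes to -0.16, the counts were 1282 and 1186. The 174 genes found in CHLA 05 and not in CHLA 04 were 266 at 5 reads or more, 85 at 30 or more, 303 with at most 1 read in each absent library, and 250 to 298 with a CHLA 04 replicate left out, 298 being the count without replicate 2. The 68 genes of the opposite kind were 110, 35, 118 and 78 to 95 under the same alternatives. Of the 193 genes named by the rule, no called gene changed sign under these alternatives, and genes named after their values were seen were not run. At a fold of 4, 44 of the 193 lost their call, and 10 did so with the most abundant transcript. No paired analysis was possible because CHLA 05 had 1 library. Neither small nucleolar nor small nuclear RNAs were among the genes listed, so that rescaling left out mitochondrially encoded genes and any other small RNAs. Depth limits absence to the 3 reads that a count of 0 allows, and 1 biological sample a line leaves the spread between cultures unmeasured.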

Other observations

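Of the immediate early genes, which respond to growth factors within minutes, FOS, FOSB and EGR1 differed more between the CHLA 04 technical replicates than between CHLA 05 and the CHLA 04 mean. FOS was at 128 and 5.46 TPM in the CHLA 04 libraries and 42.9 TPM in CHLA 05, FOSB at 56.5 and 3.92 TPM in the CHLA 04 libraries and 5.5 TPM in CHLA 05 and EGR1 at 61.3 and 11.2 TPM in the CHLA 04 libraries and 80.4 TPM in CHLA 05, and none of them was called. EGR3, NR4A2 and ATF3 were called higher in CHLA 05, at 1.85 and 1.09 against 12.1 TPM, 1.71 and 3.03 against 9.76 TPM and 8.73 and 7.48 against 24.2 TPM, and IER3 was called lower at 15.0 and 13.3 against 0.597 TPM. Of 16 genes of the list 3 were higher and 1 was lower, or 18.8% and 6.25%, beside 9.72% and 6.4% over all tested genes. These counts depend on the replicate, since by fold alone 6 were higher and 2 lower, without CHLA 04 replicate 1 they were 9 and 1, and without replicate 2 they were 4 and 4.

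Of 117 tested LINC RNAs 12 were higher and 15 were lower, or 10.3% and 12.8%, beside 9.72% and 6.4% over all tested genes. Of 286 tested antisense RNAs 15 were higher and 21 were lower, or 5.24% and 7.34%. LINC00472 was lower at 82.5 and 43.0 against 4.17 TPM, and LINC00511 was higher at 0.828 and 0.384 against 16.6 TPM. Among host genes of microRNAs, MIR181A1HG was higher at 2.05 and 2.48 against 51.6 TPM, and MIR17HG, the host of the miR-17 cluster, was higher at 4.68 and 11.5 against 29.9 TPM.

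Chromosome 4 had the largest share of genes called higher of the chromosomes, 17.3%, and its tested genes had a median GC content of 42.9% with a median difference of 0.19.

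In the library labelled CHLA 02, the 115 genes above 50 TPM in CHLA 06 and under 1 TPM in CHLA 04 were at a median of 0.553 of the CHLA 06 level, and the 131 genes of the opposite pattern were at a median of 0.384 of the CHLA 04 level. The same ratios in CHLA 05 were 0.0031 and 0.378. All 68 genes found in CHLA 04 and not in CHLA 05 had reads in the library labelled CHLA 02, and 48 of them had reads in CHLA 06.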
